A study of Homo sapiens with 15 samples.

Results

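The nuclear genes of respiratory complexes I to III were read from Affymetrix U133 Plus 2.0 arrays of SKOV3ip1 cells, an established human line from an epithelial cancer of the ovary. Genes were taken by symbol, namely those beginning with NDUFA, NDUFB, NDUFC, NDUFS, NDUFV or UQCR and those equal to SDHA, SDHB, SDHC, SDHD or CYC1. Only probe sets (groups of short probes against 1 transcript) with a single gene symbol were used, and the probe set with the highest mean over 15 arrays stood for its gene. The rule took 54 of 19775 genes, through 106 probe sets. Of these, 51 code for protein, and all 51 passed the filter on dim genes. The other 3 are non-coding RNAs with like symbols (NDUFV1-DT, NDUFB2-AS1 and NDUFV2-AS1), of which only NDUFV1-DT passed it, with means of 8.80 ± 0.10 with 003 and 8.35 ± 0.08 with MORAb003 (SD, n = 3) as the highest and lowest of its 5 extracts, and they stay out of every count below. Because the rule goes by symbol, it also takes 8 assembly factors of the NDUFAF series, which help to build complex I and are not part of the finished enzyme. By role, the measured genes were 5 of 7 nuclear core subunits of complex I, 10 of 10 accessory subunits of its matrix arm, 18 of 20 of its membrane arm, 8 of 8 NDUFAF factors, 3 of 4 subunits of complex II and 7 of 10 of complex III. The remaining subunits were not analysed here.

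In all, 5 culture conditions were compared, each grown once, so each gave 1 RNA extract, and 3 aliquots of every extract were hybridised. The no-folate culture had medium lacking folate for 7 days, and the folate culture received folic acid (2 to 10 nM, written nm in the labels) for the same time. The titles name the folate source differently, as 5-MTF, or MTF in the MORAb003 titles, and the labels neither spell this out nor settle which compound was in the medium; "folate" below stands for either. Another 3 cultures had, by the labels, folic acid for 7 days plus an antibody for 24 h, namely the antibody labelled 003, the control antibody labelled 004, or MORAb003. MORAb-003 binds folate receptor alpha, a surface protein that carries folate into cells, and whether the antibody written 003 is also MORAb003 is not clear from the labels. All p-values therefore compare extracts with the error of hybridisation and cannot show how far repeated cultures would differ. The limits of the model are that SKOV3ip1 is 1 cell line and that each condition was 1 culture. In a bulk extract, less transcript per cell and fewer cells carrying it cannot be told apart.

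Complex I (NADH dehydrogenase) takes electrons from NADH, and complex II (succinate dehydrogenase), which is also an enzyme of the citric acid cycle, takes them from succinate. Both pass them through coenzyme Q to complex III, which hands them to cytochrome c. Complexes I and III pump protons across the inner mitochondrial membrane, and complex II does not. Most subunits are coded in the nucleus, but complexes I and III also hold subunits coded by mitochondrial DNA, so they are built from the products of both genomes. Transcription factors known to act on nuclear respiratory genes include NRF1, the ETS-family factor GABP and YY1.

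Promoter windows from RefSeq (GRCh38.p14, 250 bases before to 50 bases after a transcript start) existed for 45 of the 51 genes. They are shown because shared promoter motifs are a property that the choice by symbol did not use. Both strands were searched for GCGC followed by any base and then TGCGC (NRF1), for CCGGAAG (ETS family) and for AAGATGGC (YY1), of which the ETS and YY1 strings can overlap through the letters AAG. The NRF1 string was found in 12 genes, or 26.7% of those with a window, against 11.8% of all genes tested with a window and 6.98% of all RefSeq genes with one. The YY1 string was found in 9 genes (20.0%), against 5.71% of genes tested. The ETS string was found in 10 genes (22.2%), against 19.8% of genes tested. A match is a description of the letters and not a measured binding site. The stretches just upstream of the start of 4 genes that differ between the extracts below are given with matches in capitals: the SDHD stretch (chr11:112086758-112086872, plus strand) holds an NRF1 and an ETS string, that of NDUFA3 (chr19:54102655-54102854, plus strand) holds the NRF1 string at 2 places, that of NDUFB7 (chr19:14572067-14572186, minus strand) holds an ETS string and that of NDUFB10 (chr16:1959418-1959537, plus strand) holds none of the 3.
SDHD: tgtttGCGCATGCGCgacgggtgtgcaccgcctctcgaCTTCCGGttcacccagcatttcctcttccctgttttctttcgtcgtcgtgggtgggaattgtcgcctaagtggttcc
NDUFA3: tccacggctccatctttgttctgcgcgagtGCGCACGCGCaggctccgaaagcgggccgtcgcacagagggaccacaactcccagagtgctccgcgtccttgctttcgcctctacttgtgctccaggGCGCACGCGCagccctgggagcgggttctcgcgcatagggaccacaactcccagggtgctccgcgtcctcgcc
NDUFB7: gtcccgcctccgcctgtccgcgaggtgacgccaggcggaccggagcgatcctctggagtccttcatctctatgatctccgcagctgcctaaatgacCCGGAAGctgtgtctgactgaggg
NDUFB10: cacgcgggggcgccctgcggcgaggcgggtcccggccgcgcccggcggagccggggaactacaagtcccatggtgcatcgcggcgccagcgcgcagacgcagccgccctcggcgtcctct

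One array stood apart. Replicate 1 of the 004 extract correlated with the other arrays of its own extract at no more than 0.9496, whereas the highest within-extract correlation of every other array was 0.9949 or more. All 51 genes read lower on it than on the mean of the other 004 arrays, by a median of -0.62 on the log2 scale (range -1.58 to -0.17), against -0.45 over all genes tested. Results are therefore given with all 15 arrays and without this array. The median SD of the genes between arrays was 0.36 in the 004 extract and 0.07 in the other 4 extracts. The difference between the 3′ and 5′ control probe sets of actin, which grows as RNA or labelled copies get shorter, also differed between extracts. It was 4.09 ± 0.16 without folate, 4.02 ± 0.10 with 003, 3.46 ± 0.31 with 004 (3.28 without replicate 1), 3.24 ± 0.13 with folate and 2.42 ± 0.13 with MORAb003 (mean ± SD in log2, n = 3 arrays). All 6 epithelial markers (KRT8, KRT18, KRT19, KRT7, EPCAM and CDH1) lay at or above the array-wide median (log2 6.6) in every extract, at 8.35 to 14.4. So did 3 of 3 endothelial markers (PECAM1, VWF and CDH5, at 6.63 to 8.83), 3 of 5 fibroblast markers (highest 9.35) and 1 of 4 leukocyte markers (highest 7.13), and 4 of 4 ovarian cancer markers did in all extracts but MORAb003, where 3 of 4 did. The samples were cultures of 1 cell line and the array-wide median is not a limit of detection. These levels therefore do not show that other cell types were present, and their part in the results was not tested.

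Values are deposited log2 expression, and a gene was called different where limma's adjusted p was under 0.05 over all 14368 genes tested and the means differed by at least 1.5-fold (0.58 in log2). Over the 5 extracts together, limma's F test passed for 21 of the 51 genes, against 38.1% of all genes tested, and for 39 of 51 without the outlying array, against 70.5%. The share among these genes was near the background in both fits. The range of the 5 extract means reached 1.5-fold in 19 genes, against 37.4% of all genes. The widest ranges were those of NDUFA5 (1.34), NDUFAF8 (1.24), NDUFB5 (1.15), SDHD (1.06), NDUFB7 (1.02) and NDUFS7 (0.90). Without replicate 1 of 004, 28 genes had their lowest mean in the MORAb003 extract, against 44.7% of all genes, and 19 had their highest mean in the 003 extract, against 31% of all genes. NDUFB7 and NDUFS7 owe part of their range to that array, since without it the ranges were 0.68 and 0.77.

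**Figure D1:**
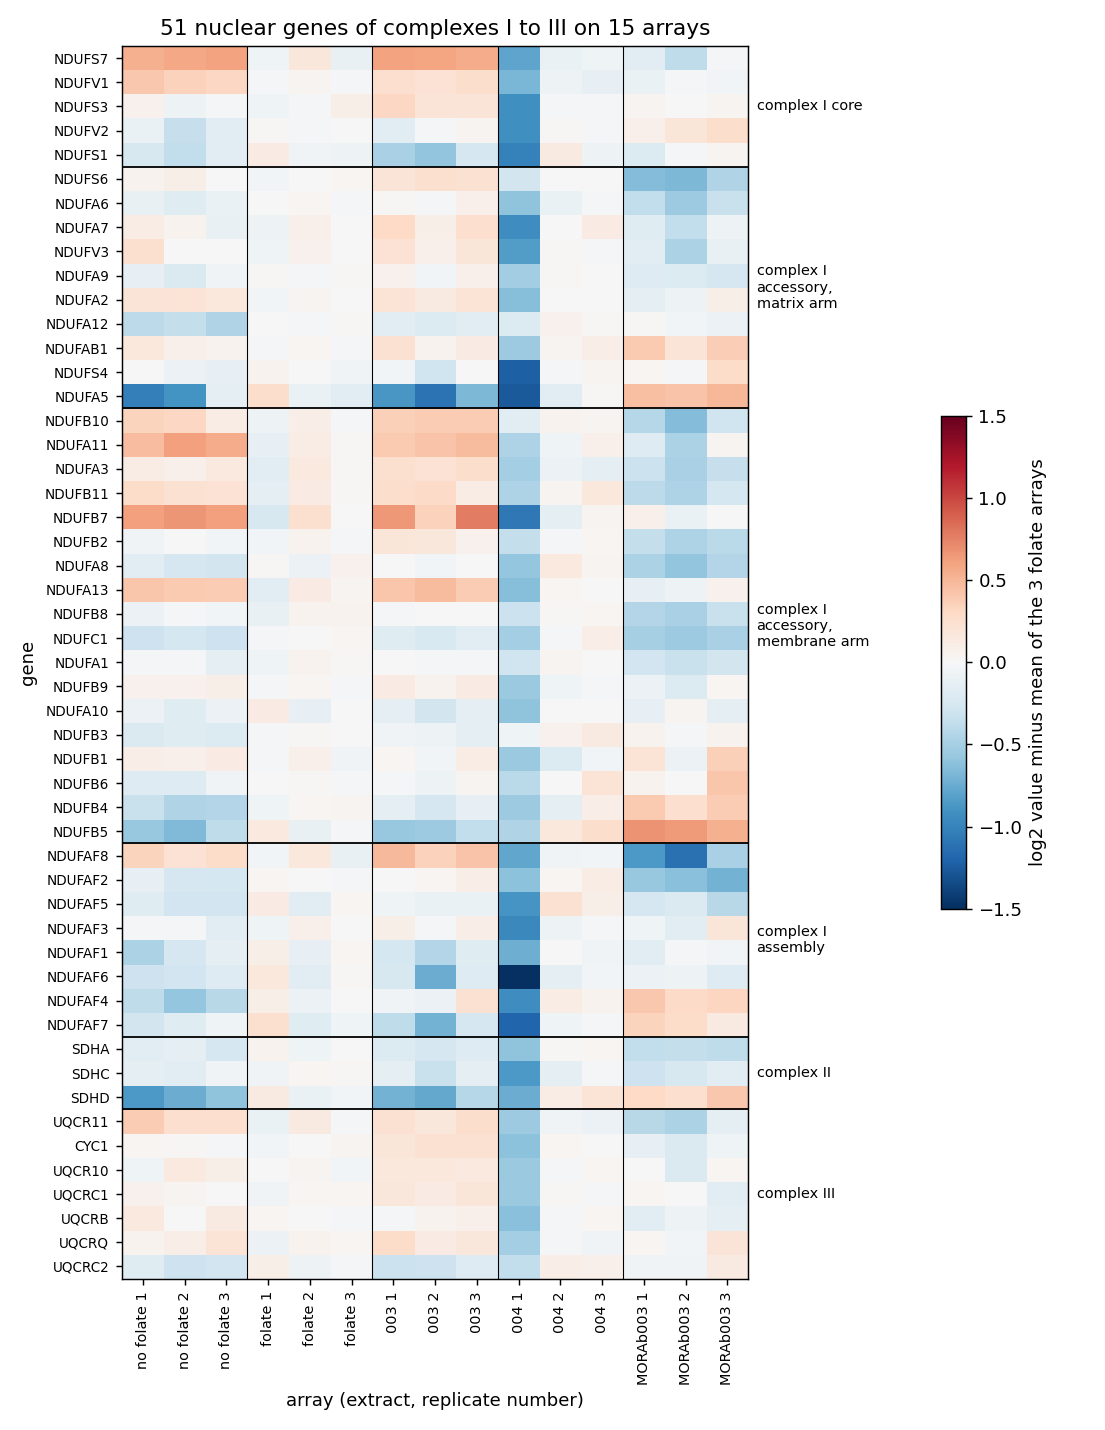
Log2 expression of the 51 genes (rows, grouped by role) on the 15 arrays (columns), as the difference from the mean of the 3 folate arrays of that gene; red is higher and blue lower. Replicate 1 of 004 is blue across all rows, the MORAb003 arrays are red for NDUFA5, NDUFB5 and SDHD and blue for NDUFAF8, NDUFS6 and NDUFB10, and the 003 and no-folate arrays carry the opposite colours for most of these genes.

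The MORAb003 and 003 extracts gave more called genes among the 51 than any other of the 7 pairs compared. The same pair also gave the most called genes over all genes tested, with 2532 higher and 1120 lower of 14368. Of the 51 genes, 4 were higher with MORAb003 (NDUFA5, NDUFB5, SDHD and NDUFAF7) and 9 were lower (NDUFAF8, NDUFB10, NDUFS6, NDUFS7, NDUFAF2, NDUFA11, NDUFA3, NDUFB11 and NDUFB7). The background was 17.6% of all genes called higher and 7.8% called lower, so the shares among the 51 genes, 7.84% and 17.6%, lay below and above it, with no test of that contrast made. With no fold minimum, 5 genes were higher and 16 lower, against 22.2% and 22.5% of all genes. All 3 MORAb003 arrays lay above all 3 of the 003 arrays for 12 genes (32.4% of all genes) and below them for 30 (40% of all genes). Leaving out replicate 1 of 004 gave the same 4 and 9, against 18.7% and 8%. Leaving out replicate 2 of MORAb003 left 8 of the 13. With all arrays the median difference was -0.21 over the 51 genes and -0.09 over all genes tested, and without that replicate it was -0.19 over the 51. Quantile normalization of the arrays gave 3 higher and 16 lower, against 14% and 11.4% of all genes, with a median of -0.39. On the first array date alone, which holds replicates 1 and 2 of each extract, 3 were higher and 9 lower, against 14.2% and 7.98% of all genes, and the median was -0.21. The genes were not all the same, since 10 of the 13 stayed called and NDUFAF2, NDUFAF7 and NDUFB7 did not. On the second date alone, which holds 1 array per extract and allows no test, the median was -0.19.

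Among the core subunits of complex I, which carry the flavin and the iron-sulfur clusters, NDUFS7 alone was called between these extracts. NDUFS7, the subunit that holds the last iron-sulfur cluster before coenzyme Q, read 11.42, 11.41 and 11.38 on the 003 arrays and 10.66, 10.44 and 10.80 on the MORAb003 arrays. It read 11.35, 11.40 and 11.43 without folate, 10.76, 10.99 and 10.71 with folate and 10.03, 10.72 and 10.76 with 004. The 003 and no-folate arrays lay above all others and did not overlap with the folate, 004 or MORAb003 arrays. NDUFS7 was 1.71-fold lower with MORAb003 than with 003 (log2 difference -0.77, SE 0.17, limma adjusted p = 0.00226, n = 3 arrays each). NDUFV1, which binds NADH, averaged 12.28 ± 0.02 with 003 and 11.98 ± 0.03 with MORAb003 (SD, n = 3), a difference of -0.30 with adjusted p = 0.0796 that became 0.000528 without the outlying 004 array and stayed under 1.5-fold. NDUFS1, the largest subunit of complex I, averaged 9.87 ± 0.17 with 003 and 10.26 ± 0.13 with MORAb003, a difference of 0.38 (adjusted p = 0.166). NDUFV2 differed by 0.22 (adjusted p = 0.354) and NDUFS3 by -0.21 (adjusted p = 0.373). The 5 core genes had a median difference of -0.21 and 2 of 5 had a positive difference, against 6105 of 14368 genes tested.

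**Figure D2:**
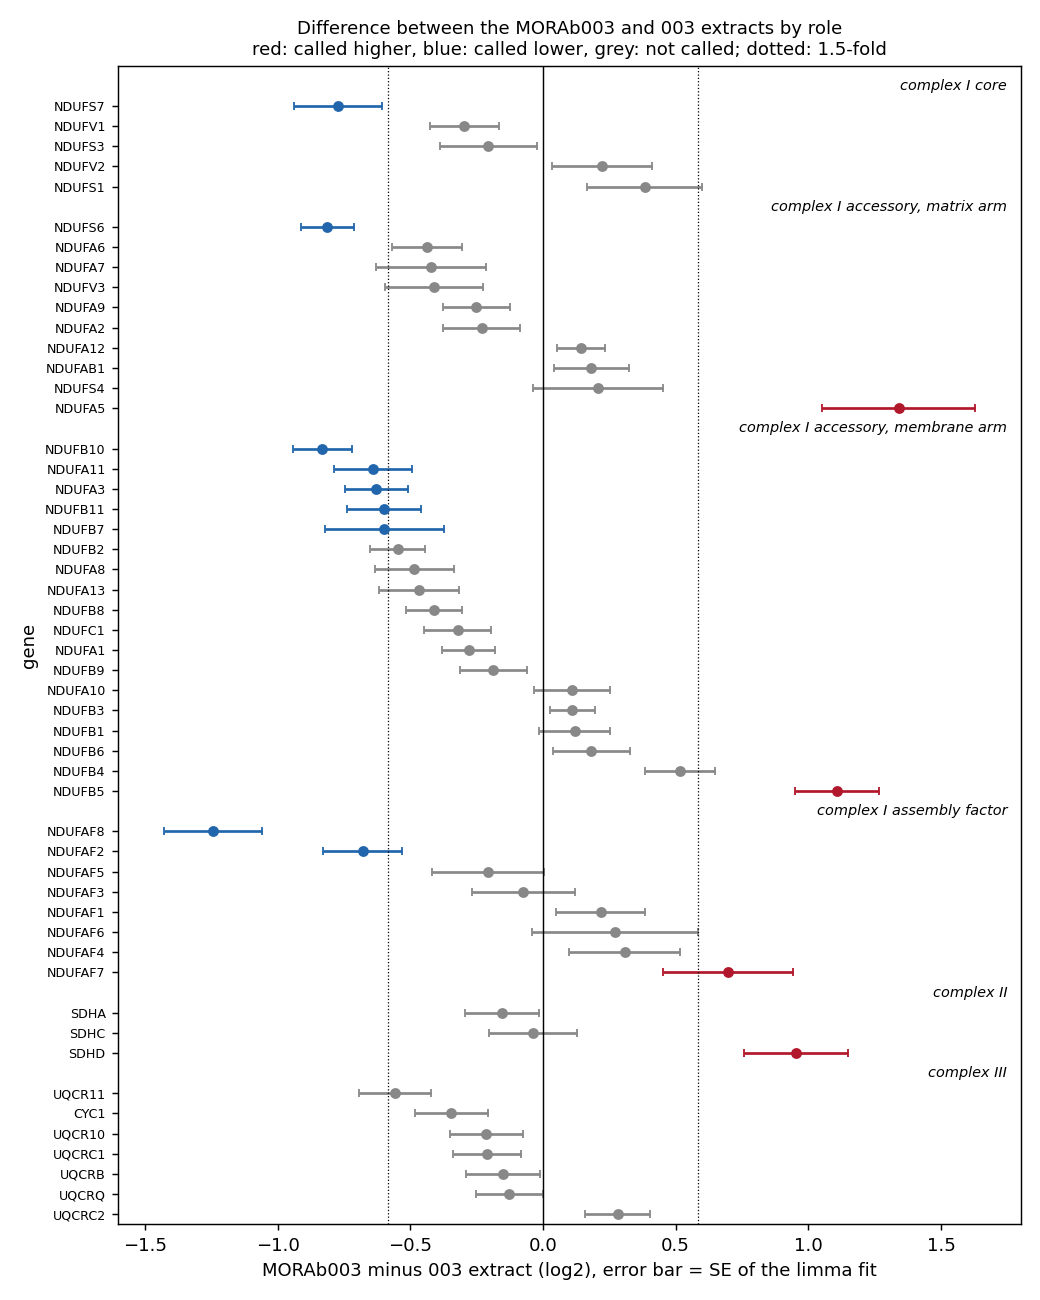
Difference between the MORAb003 and 003 extracts (x axis, log2, with the SE of the limma fit) for each of the 51 genes (y axis), grouped by role. The dotted lines mark 1.5-fold; 4 red points (called higher) lie right of the right line and 9 blue points (called lower) left of the left line, with both colours present in the complex I accessory and assembly groups.

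In the matrix arm, NDUFA5 and NDUFS6 were called in opposite directions. NDUFA5, an accessory subunit of the part that reaches into the matrix, read 9.70, 9.46 and 9.89 with 003 and 11.02, 10.99 and 11.06 with MORAb003. It read 9.54, 9.67 and 10.42 without folate, 10.84, 10.47 and 10.40 with folate and 9.31, 10.40 and 10.59 with 004. The MORAb003 arrays were the highest of all 15, and replicate 3 without folate sat apart from the other no-folate arrays. NDUFA5 was 2.53-fold higher with MORAb003 than with 003 (log2 1.34, SE 0.29, adjusted p = 0.00229). NDUFS6, a zinc-binding subunit added late in assembly, read 13.89, 13.95 and 13.93 with 003 and 13.05, 13.04 and 13.25 with MORAb003. It read 13.76, 13.79 and 13.70 without folate, 13.66, 13.72 and 13.74 with folate and 13.44, 13.71 and 13.71 with 004. The MORAb003 arrays were the lowest of all 15. NDUFS6 was 1.76-fold lower with MORAb003 than with 003 (log2 -0.81, SE 0.10, adjusted p = 5.59e-05). The other 8 matrix-arm genes were not called and differed by between -0.44 (NDUFA6) and 0.21 (NDUFS4). NDUFAB1, which is also the mitochondrial acyl carrier protein, differed by 0.18 (adjusted p = 0.307).

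Between MORAb003 and 003, 5 of 18 membrane-arm genes were lower with MORAb003 and 1 was higher, against 7.8% and 17.6% of all genes. The median difference in the membrane arm was -0.37, against -0.09 over all genes tested. NDUFB5, a membrane-arm accessory subunit, read 10.77, 10.79 and 10.96 with 003 and 12.01, 11.96 and 11.86 with MORAb003. It read 10.76, 10.67 and 10.95 without folate, 11.47, 11.22 and 11.30 with folate and 10.88, 11.49 and 11.59 with 004. The MORAb003 arrays again lay above all others, and the 003 and no-folate arrays lay below every array but replicate 1 of 004. NDUFB5 was 2.16-fold higher with MORAb003 than with 003 (log2 1.11, SE 0.16, adjusted p = 0.000149).

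Of the 5 membrane-arm genes that were lower, NDUFB10 had the largest difference. It read 11.17, 11.20 and 11.19 with 003 and 10.39, 10.16 and 10.51 with MORAb003. Its arrays read 11.15, 11.12 and 10.93 without folate, 10.74, 10.91 and 10.79 with folate and 10.64, 10.87 and 10.85 with 004. Every MORAb003 array lay below every array of the other extracts. NDUFB10 was 1.78-fold lower with MORAb003 (log2 -0.83, SE 0.11, adjusted p = 0.000105). NDUFA11, an accessory subunit that spans the membrane, read 12.56, 12.59 and 12.65 with 003 and 11.97, 11.70 and 12.21 with MORAb003, without overlap, a difference of -0.64 (adjusted p = 0.00346). NDUFA3 read 11.98, 11.96 and 11.996 with 003 and 11.41, 11.25 and 11.39 with MORAb003, again without overlap, a difference of -0.63 (adjusted p = 0.00098). The NDUFA11 and NDUFA3 calls were lost when replicate 2 of MORAb003 was left out, with differences of -0.51 and -0.58. NDUFB11, whose gene lies on the X chromosome, read 11.54, 11.56 and 11.39 with 003 and 10.88, 10.81 and 11.01 with MORAb003, a difference of -0.60 (adjusted p = 0.00394). The NDUFB11 call was lost when replicate 1 or 2 of 003, or replicate 2 of MORAb003, was left out. NDUFB7 read 9.53, 9.22 and 9.64 with 003 and 8.95, 8.77 and 8.87 with MORAb003, a difference of -0.60 (adjusted p = 0.0434). The NDUFB7 call was lost when any 1 of the no-folate or MORAb003 arrays, replicate 3 of folate, or replicate 1 or 3 of 003 was left out, with no filter on dim genes, and on the first array date alone. NDUFB11 and NDUFB7 lay just inside the 1.5-fold limit, and UQCR11 (-0.56) and NDUFB2 (-0.55) lay just outside it. The other 12 membrane-arm genes ranged from -0.55 to 0.52, with NDUFA10 (0.11) nearest to 0. NDUFB4 was the uncalled membrane-arm gene with the largest positive difference (0.52, adjusted p = 0.00676).

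**Figure D3:**
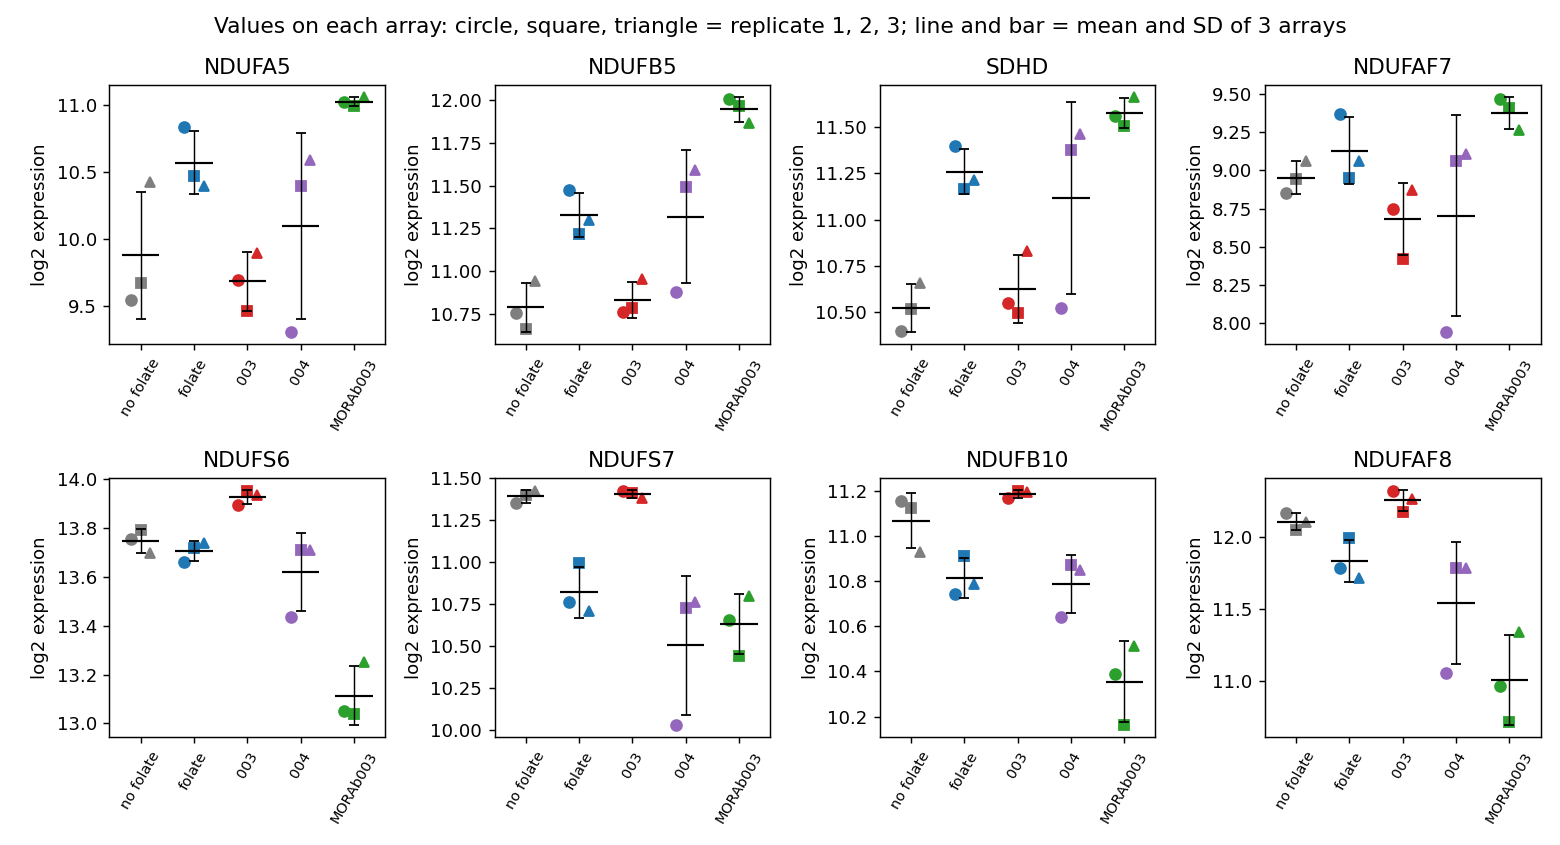
Log2 expression on each array (y axis, scaled per gene) of 8 genes in the 5 extracts (x axis), with the mean and SD of 3 arrays in black. In the upper row NDUFA5, NDUFB5 and SDHD are high with MORAb003 and low with 003 and without folate; in the lower row NDUFS6 and NDUFB10 are lowest with MORAb003, as is NDUFAF8 but for 1 array of 004, and NDUFS7 is high without folate and with 003.

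Among the NDUFAF assembly factors, 2 of 8 were lower with MORAb003 than with 003 and 1 was higher. Of all genes tested, 7.8% were called lower and 17.6% higher. NDUFAF8, which acts together with NDUFAF5 in assembly, read 12.32, 12.17 and 12.27 with 003 and 10.97, 10.72 and 11.34 with MORAb003. It read 12.16, 12.04 and 12.10 without folate, 11.79, 11.99 and 11.72 with folate and 11.06, 11.79 and 11.79 with 004. Apart from replicate 1 of 004, the MORAb003 arrays were the lowest. NDUFAF8 was 2.37-fold lower with MORAb003 than with 003 (log2 -1.24, SE 0.19, adjusted p = 0.000216). NDUFAF2, an assembly chaperone for complex I, read 11.07, 11.09 and 11.17 with 003 and 10.50, 10.44 and 10.35 with MORAb003, a difference of -0.68 (adjusted p = 0.00262). NDUFAF7, a methyltransferase that modifies a core subunit, read 8.75, 8.42 and 8.87 with 003 and 9.47, 9.41 and 9.26 with MORAb003, a difference of 0.70 (SE 0.24, adjusted p = 0.0316). The NDUFAF7 call was lost when any 1 of the 3 MORAb003 arrays, or replicate 1 or 2 of 003, was left out. It was also lost after quantile normalization and on the first array date alone. The other 5 factors were not called and ranged from -0.21 (NDUFAF5) to 0.31 (NDUFAF4).

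In complex II, SDHD was called and the other 2 subunits were not. SDHD, one of the pair of subunits that anchor succinate dehydrogenase in the membrane, read 10.55, 10.49 and 10.83 with 003 and 11.56, 11.51 and 11.67 with MORAb003. It read 10.39, 10.51 and 10.66 without folate, 11.40, 11.16 and 11.22 with folate and 10.52, 11.38 and 11.46 with 004. The no-folate and 003 arrays lay below every folate and MORAb003 array. SDHD was 1.94-fold higher with MORAb003 than with 003 (log2 0.96, SE 0.20, adjusted p = 0.00175). SDHA, the catalytic flavoprotein, averaged 11.32 ± 0.03 with 003 and 11.17 ± 0.01 with MORAb003 (SD, n = 3), a difference of -0.15 (adjusted p = 0.377). SDHC, the other membrane anchor, averaged 11.10 ± 0.11 and 11.06 ± 0.08, a difference of -0.04 (adjusted p = 0.868).

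By the limma test, 0 of the 7 complex III genes were called between the MORAb003 and 003 extracts. Over all genes tested, 17.6% were called higher and 7.8% lower. At an unadjusted limma p under 0.05, 1 was higher and 2 lower, where 52.6% of all genes passed. In complex III, 6 of 7 genes had negative differences, with a median of -0.21. Over all genes tested, 6105 of 14368 differences were positive. CYC1, cytochrome c1, averaged 12.98 ± 0.03 with 003 and 12.63 ± 0.08 with MORAb003, a difference of -0.34 (adjusted p = 0.0546). UQCRC1 averaged 12.46 ± 0.03 and 12.25 ± 0.11 (difference -0.21, adjusted p = 0.198). UQCRC2, the other large core protein of the complex, averaged 12.61 ± 0.07 and 12.90 ± 0.11 and differed by 0.28 (adjusted p = 0.0755). The next probe set of UQCRC2, also bright (mean 12.13), differed by 0.72, over the 1.5-fold limit, and was not tested by itself. UQCR11, a small accessory subunit, had the largest difference in complex III (-0.56, adjusted p = 0.00477), just under the fold limit. UQCR10 (-0.21), UQCRB (-0.15) and UQCRQ (-0.13), further small subunits, were not called.

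The actin control difference separated the same extracts, since it was widest without folate and with 003 and narrowest with MORAb003. SDHD was lowest and NDUFS7 highest in the 2 extracts with the widest difference. The GAPDH control difference had the same order at its low end, at 1.21 ± 0.14 with MORAb003 against 2.49 ± 0.03 with 003 and 2.37 ± 0.12 without folate (SD, n = 3). The part of RNA or copy length in these results was not tested. The 15 points come from 5 extracts.

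**Figure D4:**
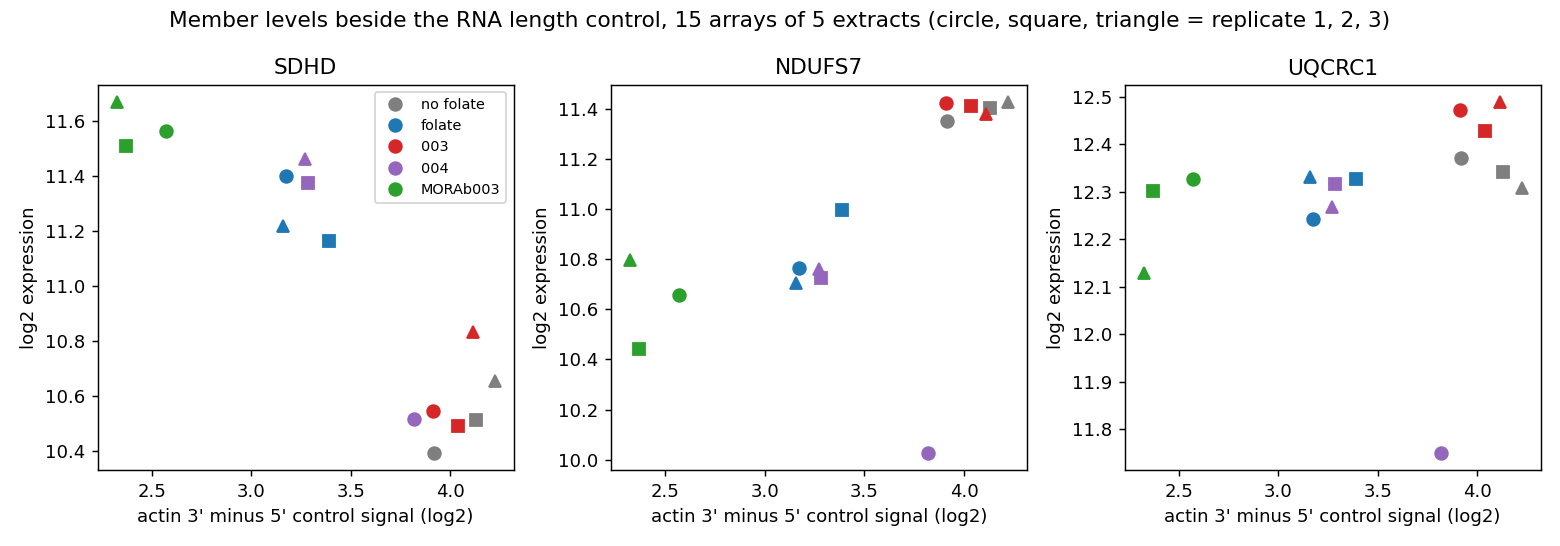
Log2 expression of SDHD, NDUFS7 and UQCRC1 (y axes) against the actin 3′ minus 5′ control difference in log2 (x axes), 1 point per array, coloured by extract. SDHD is low and NDUFS7 high on the 003 and no-folate arrays at the right (3.91 or more), MORAb003 arrays lie at the left (2.57 or less), and replicate 1 of 004 at 3.82 is low in all 3 panels.

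Against the folate extract, MORAb003 gave 1 higher gene and 3 lower, against a background of 4.77% of all genes called higher and 1.81% called lower; the shares among the 51 genes were 1.96% and 5.88%. With no fold minimum 1 was higher and 9 lower, against 6.43% and 4.7%, and the arrays did not overlap for 7 higher (26.2% of all genes) and 21 lower genes (28.8%). Without replicate 1 of 004 the counts were again 1 and 3, against 8.36% and 1.99%. NDUFB5 was 1.53-fold higher than with folate (log2 0.62, SE 0.16, adjusted p = 0.0241). NDUFAF8 was 1.77-fold lower (-0.82, adjusted p = 0.0137). NDUFAF2 read 11.10, 11.05 and 11.04 with folate and was 1.55-fold lower with MORAb003 (-0.63, adjusted p = 0.0165), and NDUFS6 was 1.51-fold lower (-0.59, adjusted p = 0.00275). The arrays of all 4 genes did not overlap between these extracts. The count of 4 moved with single arrays: 0 genes were called without replicate 1 or without replicate 2 of MORAb003, 2 without replicate 3 of MORAb003, and 1 without replicate 2 or replicate 3 of folate. The share of all genes called in each of those fits is not given here, so these counts are not set against a background. Quantile normalization gave 0 higher and 3 lower, against 4.2% and 2.93% of all genes. The median over the 51 genes was -0.08, against -0.04 over all genes tested. Within the first array date 0 were called, against 0.125% of all genes called higher and 0.0278% called lower. The median over the 51 genes was -0.13 on that date and -0.07 on the second. SDHD differed by 0.32 (adjusted p = 0.314) and NDUFA5 by 0.46 (adjusted p = 0.326).

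With all arrays, 0 of the 51 genes passed limma's test and the fold limit when the culture without folate was compared with the folate culture, against a background of 0.905% called higher and 1.8% called lower. At an unadjusted limma p under 0.05, 7 were higher and 8 lower, where 18.7% of all genes passed. With no fold minimum 0 were higher and 1 lower, against 1.66% and 2.4%, and the arrays did not overlap for 14 higher (20% of all genes) and 20 lower genes (22.3%). Without the outlying 004 array, which belongs to neither of these extracts, NDUFB7 was called higher and SDHD and NDUFA5 lower without folate, against 1.35% and 5.16% of all genes. SDHD differed by -0.74 (SE 0.20), with an adjusted p of 0.051 with all arrays and 4.08e-05 without that array. NDUFA5 differed by -0.69, and its adjusted p was 0.203 with all arrays and 0.00697 without it. NDUFB7 read 9.49, 9.54 and 9.49 without folate and 8.63, 9.11 and 8.88 with folate, a difference of 0.63 (adjusted p = 0.136 with all arrays and 0.000628 without it). The arrays of SDHD and of NDUFB7 did not overlap between these extracts, whereas replicate 3 without folate and replicate 3 with folate overlapped for NDUFA5. Without replicate 2 or without replicate 3 of 004, 1 gene was called lower. Over all genes, 141 were called higher and 321 lower of 14512 without replicate 2. Without replicate 3 these were 149 and 343 of 14539. NDUFV1 averaged 12.38 ± 0.05 without folate and 12.03 ± 0.04 with folate, a difference of 0.35 (adjusted p = 0.156), and NDUFS7 differed by 0.57 (adjusted p = 0.07). The median over the 51 genes was -0.06, against 0.01 over all genes, and it turned to 0.05 after quantile normalization, which called 3 genes higher and 1 lower, against 1.8% and 2.68% of all genes. The median was -0.03 within the first array date and -0.07 on the second.

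The 003 extract against the folate extract likewise gave no call with all arrays, against 0.432% of genes called higher and 1.59% called lower, with 7 genes higher and 4 lower at an unadjusted limma p under 0.05, where 21.4% of all genes passed. With no fold minimum there were also 0, against 1.09% and 1.98%, and the arrays did not overlap for 21 higher (22.1% of all genes) and 15 lower genes (24.5%). Without replicate 1 of 004, NDUFB7 was called higher and NDUFA5 and SDHD lower with 003, against 0.742% and 6.55% of all genes. NDUFA5 differed by -0.88 (adjusted p = 0.103 with all arrays and 0.00118 without that array). SDHD differed by -0.64 (adjusted p = 0.0862 and 0.000152). NDUFB7 differed by 0.59 (adjusted p = 0.152 and 0.00103). NDUFS7 differed by 0.584 and stayed just under the fold limit. Quantile normalization gave 2 higher and 1 lower, against 1.42% and 2.95% of all genes. The median over the 51 genes was 0.03, equal to that over all genes to 2 decimals, and was 0.01 within the first array date and 0.10 on the second. This comparison and both comparisons before it share the folate arrays, so their values are not independent.

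The control antibody 004 gave no called gene against folate, with or without replicate 1, where 0% of all genes were called. At an unadjusted limma p under 0.05, 1 of the 51 genes was lower with all arrays (8.87% of all genes passed) and 0 without that replicate (3.42%). The median over the 51 genes was -0.20 with all arrays (all genes -0.13) and 0.00 without replicate 1 (all genes 0.01). Quantile normalization moved the median over all genes to 0.00 and that over the 51 genes to -0.02.

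Against 004, the calls depended on its replicate 1. With no fold minimum and all arrays, 7 genes were higher and 0 lower for 003 (5.19% and 0.773% of all genes), and 7 higher and 7 lower for MORAb003 (23.2% and 11.9%). For 003 against 004, NDUFB7 (0.98), NDUFS7 (0.90), NDUFAF8 (0.71) and NDUFA13 (0.62) were called higher and none lower with all arrays, against 3.07% and 0.397% of all genes. Without that array, NDUFB7 (0.63) and NDUFS7 (0.66) were called higher and NDUFA5 (-0.81), SDHD (-0.80) and NDUFB5 (-0.70) lower, against 0.806% and 5.54%. Leaving out any 1 of the 003 arrays gave 0 calls, whereas leaving out replicate 2 or replicate 3 of 004 gave 7 or 8. The median difference of 0.26 (all genes 0.07) was 0.03 without replicate 1 (all genes 0.01), 0.36 within the first array date and 0.04 on the second. NDUFA13, a membrane-arm subunit also known as GRIM-19, had adjusted p = 0.0305 with all arrays and 0.00307 without replicate 1, where its difference of 0.40 was under the fold limit.

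For MORAb003 against 004, NDUFA5 (0.93), NDUFAF7 (0.68), NDUFB5 (0.62) and NDUFAF4 (0.59) were called higher and none lower with all arrays, against 17.6% and 2.32% of all genes. Without replicate 1 of 004 none of the 51 was higher, and NDUFAF8 (-0.78), NDUFAF2 (-0.70), NDUFA8 (-0.60) and NDUFS6 (-0.60) were lower, against 9.95% and 2.4%. NDUFA8, a membrane-arm subunit of the intermembrane space side, had an adjusted p of 2.44e-05 in that fit. At an unadjusted p under 0.05 that fit had 7 genes higher and 18 lower, where 52.5% of all genes passed. The median difference changed sign, from 0.12 with all arrays (all genes 0.04) to -0.08 without that replicate (all genes -0.05) and -0.15 after quantile normalization (all genes -0.10). Quantile normalization gave 1 higher and 6 lower, against 11.8% and 6.59% of all genes. The 4 calls with all arrays became 1 or 2 when any single array of the no-folate, folate or MORAb003 extracts or replicate 1 of 003 was left out, and 7 or 10 without replicate 2 or replicate 3 of 004. For these fits too, the share of all genes called is not given here. The median was 0.18 within the first array date and -0.04 on the second.

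Other probe sets of the same genes did not always show the same difference. Of the 51 genes, 30 had more than 1 probe set. The 3 brightest probe sets of SDHC differed between MORAb003 and 003 by -0.04, 0.00 and 0.17, whereas 3 dimmer ones differed by 0.86, 1.23 and 1.45, the last of which lay above the array-wide median only with MORAb003. The brightest of NDUFS1 differed by 0.38 and a dimmer one by 2.03, and a further one by -0.47. UQCRC2 gave 0.28 with its brightest (mean 12.77) and 0.72, over the 1.5-fold limit, with its next probe set (mean 12.13). NDUFAF8 gave -1.24 with the brightest and -0.23 with the next. That dimmer NDUFAF8 probe set lay below the array-wide median in both extracts, at 6.52 with 003 and 6.29 with MORAb003. NDUFB10 gave -0.83 with the brightest, whose identifier ends in x_at and which may also bind other transcripts, and -0.34 with the other. For NDUFB8, NDUFB2, UQCR11, NDUFA6 and NDUFA11 every probe set above the array-wide median was lower with MORAb003. NDUFS6, NDUFB5 and NDUFAF2 have 1 probe set each, and the second probe sets of NDUFA5 (mean 4.44) and SDHD (mean 4.99) were near the bottom of the scale. With the mean of all probe sets in place of the brightest, 8 of the 13 genes were still called. The 8 include NDUFS6, NDUFB5, NDUFAF2, NDUFA3 and NDUFB11, whose values could not change because each has 1 probe set. Of the 13 genes, those with more than 1 probe set that were still called were NDUFA5, NDUFAF7 and NDUFB10. NDUFA11, NDUFAF8, NDUFB7, NDUFS7 and SDHD were not. The second probe set of NDUFB7 (mean 5.33) lay below the array-wide median in every extract.

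Other genes of respiration were read from lists given by function, and their counts stand beside 17.6% of all genes called higher and 7.8% called lower between MORAb003 and 003. Between MORAb003 and 003, 7 of 15 genes of the citric acid cycle and pyruvate dehydrogenase were higher and 0 lower, with the largest differences in SUCLG2 (1.81), IDH3A (1.07) and DLD (1.07). The median of that list was 0.26. Against folate, 4 of the 15 were lower without folate (1.8% of all genes) and 4 were lower with 003 (1.59% of all genes), among them SUCLG2 (-1.09 and -1.09) and SUCLA2 (-0.96 and -0.88), which code for succinyl-CoA synthetase subunits. Of 10 assembly genes of complexes II and III, 3 were higher with MORAb003 than with 003, namely SDHAF3 (1.502), SDHAF4 (1.497) and LYRM7 (1.16), and UQCC3 (-1.06) was lower. SDHAF4, which assists the flavoprotein SDHA, averaged 7.64 ± 0.04 with MORAb003 and 6.15 to 6.47 in the other extracts (SD, n = 3), so it passed the filter on dim genes only through the extract where it was high, and it does not count as support for a difference. Of 10 further complex I assembly genes, TMEM126B (0.68) was higher and ECSIT (-0.61) lower.

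At an unadjusted limma p under 0.05 between MORAb003 and 003, 1 of 12 nuclear complex IV genes was higher and 4 were lower. Of all genes, 52.6% passed at that limit. By limma's adjusted test 0 of the 12 were called between these extracts, and their median was -0.03. Of 18 nuclear ATP synthase genes 3 were lower, namely ATP5F1D (-0.88), ATP5ME (-0.78) and ATP5MC1 (-0.70). Of 17 genes of the mobile carriers and of coenzyme Q synthesis 2 were higher and 2 lower. Of 11 regulators of respiratory genes, 4 were higher and 0 lower: GABPA (1.803), TFB2M (0.99), TFAM (0.94) and GABPB1 (0.78). GABPA, a subunit of the ETS-family factor GABP, was also lower without folate (-0.91, adjusted p = 0.0315) and higher with MORAb003 (1.02, adjusted p = 0.00867) than with folate. Of 7 transcripts coded by mitochondrial DNA, ND2 (-1.14) and ATP6 (-0.997) were lower without folate than with folate, and ND6 was lower with MORAb003 than with 003 (-1.64). ND2 and ND6 are complex I subunits. COXFA4, formerly NDUFA4 and now placed with complex IV, falls outside the rule under its current symbol. It averaged 12.41 ± 0.04 with 003 and 12.59 ± 0.06 with MORAb003 (SD, n = 3) and was not called.

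**Figure D5:**
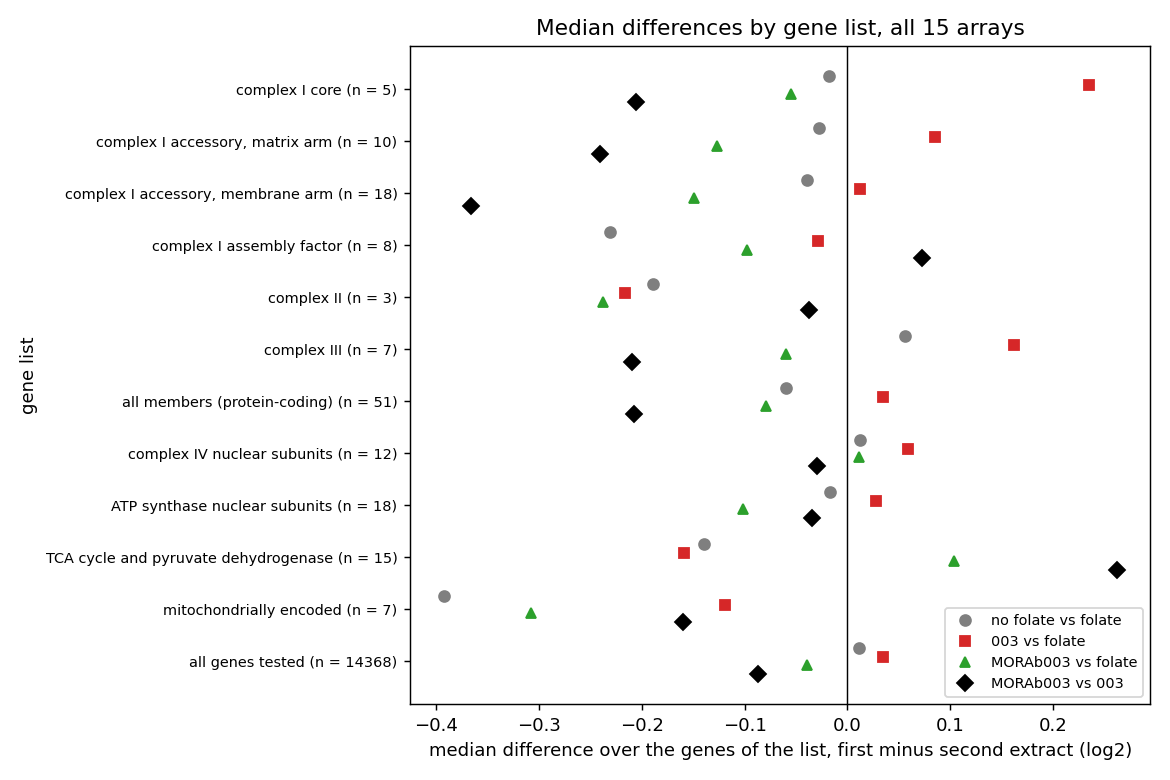
Median log2 difference over the genes of each list (y axis, number of genes tested in brackets) in 4 comparisons (x axis, first minus second extract), all 15 arrays. Between MORAb003 and 003 (diamonds) the complex I membrane arm lies at -0.37 and the citric acid cycle genes at 0.26, with all genes at -0.09; the medians carry no test.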

How the data were processed

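The authors deposited log2 expression per probe set for 15 arrays; how probe values were summarised and normalized is not stated in the labels. Per the labels' protocols, RNA was taken with Trizol and biotinylated cRNA was hybridised. Values ran from 4.00 to 15.5 and were used as deposited. Of 54675 probe sets, 62 were controls, 41091 carried 1 gene symbol, 1801 several and 11721 none; Entrez identifiers linked 41037 of them to current RefSeq symbols. Genes whose mean reached the median of all probe sets (6.6) in 1 extract or more were kept (14368). The test was limma 3.58.1 (lmFit and eBayes, R 4.3.3) with 5 group means (10 residual degrees of freedom) and Benjamini-Hochberg adjustment over all genes, and a call also needed a 1.5-fold difference. Figures used matplotlib 3.10.9. Fits and motif search were tested on simulated data.

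The members and lists were chosen with earlier results of these data known. The rule for names took the core subunits, per comparison the called genes with the largest differences (up to 6 each way), the 6 widest ranges, the extremes of a role group, and from other lists up to 3 called genes with the largest differences. The remaining genes lower with MORAb003 than with 003, the disagreeing probe sets, UQCC3, GABPB1 and COXFA4 were added after their values were seen. Precision depends on how many arrays there are. Alternatives were quantile normalization, other filters, the mean of all probe sets, no fold minimum, blocks by replicate number or array date, each date alone, limma's trended prior, only the 6 arrays compared, and leaving out each array.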

Additional observations from a re-analysis of the deposited data

How the results depend on the processing

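No called gene changed the sign of its difference under the alternatives run. For MORAb003 against 004, however, leaving out replicate 1 of 004 turned 4 higher and 0 lower into 0 higher and 4 lower. Settings that moved a count by over 1.5 times were the following. Quantile normalization called 4 genes without folate against folate, 3 with 003 against folate and 7 with MORAb003 against 004; the medians were 0.0495, 0.1464 and, for MORAb003 against 003, -0.3894, and the F test passed for 39 genes. Without a fold minimum, 1 gene was called without folate against folate, 10 with MORAb003 against folate, 7 with 003 against 004, 14 with MORAb003 against 004 and 21 with MORAb003 against 003. Only the 6 arrays compared gave 3, 3, 0 and 0 calls for no folate and 003 against folate and for 003 and MORAb003 against 004. In that setting, 190 of 14368 genes were called higher and 729 lower without folate against folate. For 003 against folate these were 105 and 924. The 75th percentile filter and the array date as a block each gave 1 call without folate against folate. With that filter 133 of 9192 genes were called higher and 313 lower, and with that block 130 of 14368 higher and 244 lower. The mean of all probe sets gave 1 call for 003 and 2 for MORAb003 against 004. The first array date alone gave 0 calls for MORAb003 against folate, where 0.125% of all genes were higher and 0.0278% lower. It also gave 0 for 003 against 004, where 0% of all genes were called. The cause of these shifts was not tested. Leaving out 1 array gave 0 to 3 calls for no folate and for 003 against folate, 0 to 4 for MORAb003 against folate, 0 to 0 for 004 against folate, 0 to 8 for 003 and 1 to 10 for MORAb003 against 004, and 8 to 13 for MORAb003 against 003, and 39 genes passed the F test without replicate 1 of 004. The medians then ran from -0.0763 to -0.0247, 0.0094 to 0.0716, -0.1133 to -0.0792, -0.3045 to 0.0043, 0.0291 to 0.3907, -0.0786 to 0.2242 and -0.2153 to -0.1897 in the order no folate, 003, MORAb003 and 004 against folate, 003 and MORAb003 against 004, and MORAb003 against 003. Correlations of deviations between same-numbered arrays ran from -0.545 to 0.524, and both extremes came from comparisons with 004. The deviations were taken from extract means that include the outlying 004 array. Replicate 3 was also on the second array date in every extract. Whether the numbers pair the samples can therefore not be decided by this check. With the replicate number as a block, 13 genes were called for MORAb003 against 003, 4 for MORAb003 against folate, 3 for each of 003 and MORAb003 against 004, and 0 for the other 3 comparisons. The trended limma prior changed no count by over 1.5 times. With 3 arrays of 1 extract per condition, no setting reaches the spread between cultures, and differences of dim probe sets are limited by their signal over background.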
